A study of Mus musculus with 6 samples.

Results

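The genes described here encode the machinery that fills, docks, releases and recycles synaptic vesicles, together with the adhesion proteins that align the 2 sides of a synapse. They were chosen by name: 42 mouse genes, of which 39 had 30 or more counts summed over the 6 libraries, in a table of 39179 genes. Sv2b, Slc17a6 and Slc17a7 fell short of 30 counts. Of the 39, all but Sv2c and Sncb also passed the filter on low counts, so that 37 genes were tested among 13775.

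The RNA came from neural progenitor cells of the CD1 strain, taken from the cerebral cortex of embryos at stage E13.5 and allowed to differentiate in flasks. All 6 cultures carried a stably expressed transgene. It was green fluorescent protein (GFP) in 3 libraries and neuroserpin with the G392E substitution (G392E-NS) in the other 3. Neuroserpin is a neuronal protease inhibitor, and the G392E form polymerises within the endoplasmic reticulum and causes the inherited dementia FENIB. The labels do not name the promoter of the transgenes or the number of clones, nor say whether replicates were separate cultures, so p-values measure the spread between these libraries, which may be technical. Cells with wild-type neuroserpin were not analysed here.

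A synaptic vesicle is loaded by a transmitter transporter, held near the membrane by synapsins and Rab3, and docked at the active zone by the scaffolds Rim, Bassoon and Piccolo with the priming factor Munc13. Fusion is driven by SNARE proteins, VAMP on the vesicle and syntaxin with SNAP-25 on the plasma membrane, held ready by complexin and triggered when synaptotagmin binds calcium. NSF and its SNAP adaptors then take the SNARE complex apart, and dynamin and amphiphysin retrieve the membrane. In developing neurons many of these genes are repressed by REST, a factor that binds the RE1 element, until neuronal differentiation.

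Upstream sequences are shown for 3 of the genes because their letters bear on that repression (Syn1, Nlgn1) or on a gene that rose (Sv2a). RefSeq promoters (GRCm38.p6) were found for 33 of the 42 genes, and 4 motifs were searched on both strands in the 250 bases before each start: TTCAGCACC (the left part of RE1), TGACGTCA (the cyclic AMP response element, CRE), GGGCGG (the GC box) and CCAAT. Sequences run 5′ to 3′ on the gene's strand, end before any exon of the gene in GENCODE M21, and have matches in capitals.
Sv2a, chr3:96180977-96181150, plus strand: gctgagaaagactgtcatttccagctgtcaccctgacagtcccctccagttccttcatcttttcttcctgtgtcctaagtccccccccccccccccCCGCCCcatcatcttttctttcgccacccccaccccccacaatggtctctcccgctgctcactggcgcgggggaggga
Syn1, chrX:20921005-20921168, minus strand: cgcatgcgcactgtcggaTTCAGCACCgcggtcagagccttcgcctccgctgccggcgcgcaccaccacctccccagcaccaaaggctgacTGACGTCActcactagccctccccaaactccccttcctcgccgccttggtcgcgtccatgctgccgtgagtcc
Nlgn1, chr3:26153987-26154236, minus strand: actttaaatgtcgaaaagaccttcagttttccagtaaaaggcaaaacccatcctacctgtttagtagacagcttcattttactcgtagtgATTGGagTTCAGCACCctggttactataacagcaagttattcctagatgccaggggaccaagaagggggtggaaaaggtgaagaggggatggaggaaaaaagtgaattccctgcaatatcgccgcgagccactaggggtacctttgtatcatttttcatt

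The RE1 letters began 232 bases upstream of the RefSeq start of Syn1 and 153 bases upstream of an internal start of Nlgn1. They were in the windows of 2 of the 33 genes, Syn1 and Nlgn1, and of 0.348% of all 27025 genes in the RefSeq table. The CRE letters were 159 bases upstream of Syn1, the only one of the 33 with a match, against 1.77% of all genes. The GC box was in 23 of the 33 (35.4% of all genes) and CCAAT in 8 (37.5%). In the sequences shown, Sv2a held the GC box in reverse, CCGCCC, 154 bases upstream, and Nlgn1 held CCAAT in reverse, ATTGG, 160 bases upstream. No matches overlapped in these sequences, and a match is a description of letters, not of a bound site.

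Across the machinery most genes kept a similar level in the 2 groups, and 2 of the 37 tested, Sv2a and Nlgn3, were higher in G392E-NS libraries. None was lower (edgeR quasi-likelihood test, Benjamini-Hochberg adjusted p under 0.05). Over all 13775 genes tested 6.15% were called, 4.79% higher and 1.36% lower, so the 5.41% called among these genes lay near the background. At an unadjusted p under 0.05, 6 were higher and 0 lower, which is 16.2% and 0% of the 37, against 14.4% and 8.06% of all genes tested. DESeq2 and limma-voom called 0 lower as well. The median log2 fold change of the 37 was 0.07, against −0.00 over all genes tested, with 24 above 0 and 13 below. The 95% interval of the fold change lay within 2-fold in either direction for 31 of the 37, against 76.9% of all genes tested. In bulk RNA, fewer cells of a type and less RNA per cell cannot be told apart.

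**Figure D1:**
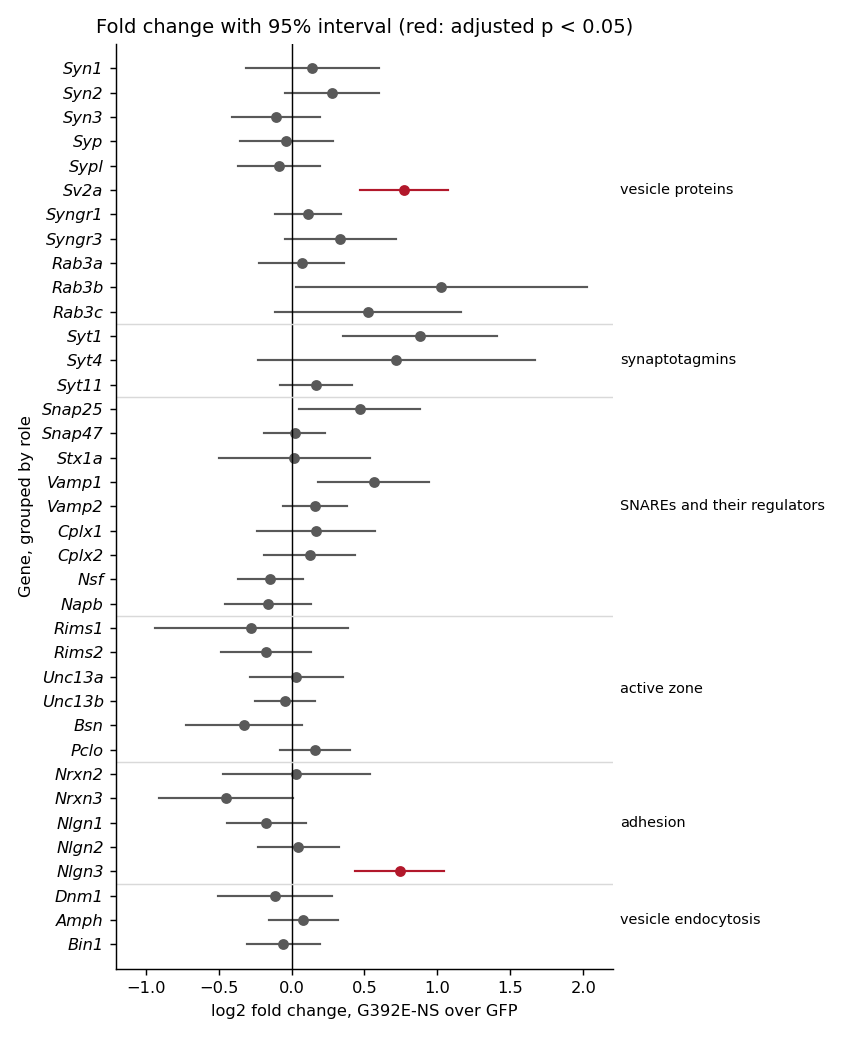
Log2 fold change of G392E-NS over GFP (x axis) for the 37 genes tested, grouped by role on the y axis, with points for the fitted value and lines for the 95% interval. The intervals of Sv2a (0.47 to 1.07) and Nlgn3 (0.44 to 1.05) lie above 0 and are drawn in red as the genes called, and those of the active zone genes all span 0.

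Markers of neurons, astrocytes, the oligodendrocyte lineage and progenitors were present. Apart from Map2, the most abundant neuron marker, those named here were picked after their values were seen. Of 14 neuron markers, Map2 stood at 2750 ± 127 CPM (counts per 1000000 counts of the library scaled by its TMM factor, mean ± SD, n = 3) in GFP libraries and 2631 ± 400 in G392E-NS libraries, while Stmn2 and Nefl were below 1 CPM in both groups. The neuron markers summed to 3753 to 4337 CPM in GFP libraries and 3601 to 4747 in G392E-NS libraries, with Thy1 and Gap43 higher, Elavl4 lower and 9 of the 12 tested not called. Astrocyte markers summed to 4039 to 5732 CPM in GFP libraries and 9337 to 14678 in G392E-NS libraries, with 5 of 11 higher (Slc1a2, Aldoc, Slc4a4, Fgfr3 and Aldh1l1) and none lower. Oligodendrocyte lineage markers summed to 3221 to 3901 and 2770 to 5053 CPM, with Pdgfra, Mal and Mog higher among 9 tested. Progenitor markers summed to 4042 to 4659 and 3791 to 4835 CPM, with Nes lower and Prom1 higher among 8. Of 9 microglia markers, Csf1r, C1qa and C1qb had no counts in any library and the list summed to 0.0832 to 0.403 CPM per library. The 8 endothelial and mesenchymal markers summed to at most 2.12 CPM, and Cdh5, Dcn and Lum had no counts. Cycling cell markers, none of 7 called, summed to 3.64 to 65.8 CPM in GFP, where replicate 3 was the lowest, and 8.31 to 23.2 CPM in G392E-NS libraries. The part of these differences in the results below was not tested.

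**Figure D2:**
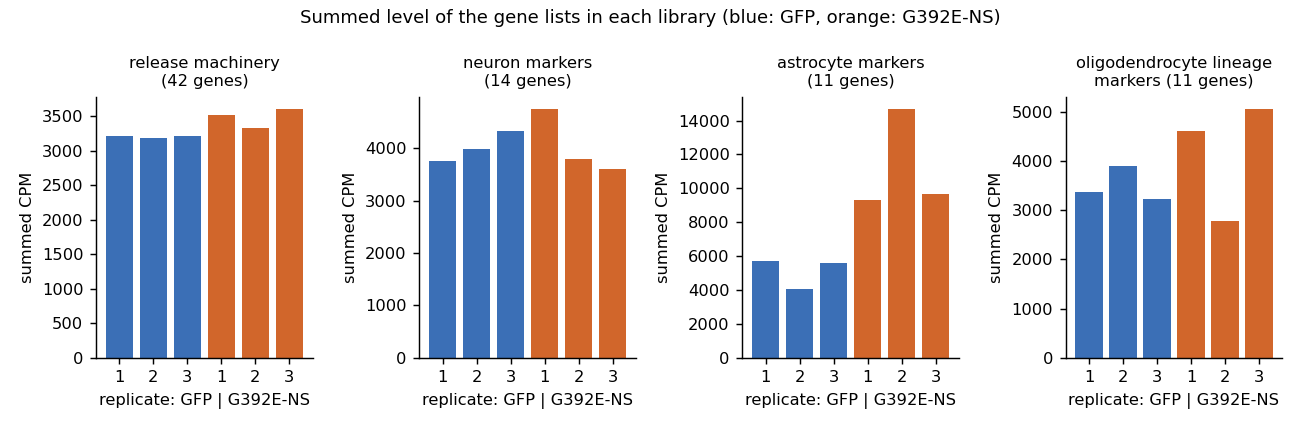
Summed CPM (y axis) of 4 gene lists in each library, with GFP replicates 1 to 3 in blue and G392E-NS replicates 1 to 3 in orange. The astrocyte list is at least 9337 in each G392E-NS library and at most 5732 in each GFP library. The release machinery runs from 3179 to 3211 in GFP libraries and from 3321 to 3602 in G392E-NS libraries. Of this, Syt11 alone holds 1043 to 1070 and 1139 to 1248. The gap between 3211 and 3321 depends on the scaling, with TMM factors of 1.02 in GFP libraries and 0.950 in G392E-NS replicate 2.

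Sv2a encodes a glycoprotein of the vesicle membrane that supports calcium-triggered release and is the target of the drug levetiracetam. Its level (ENSMUSG00000038486, GRCm38 chromosome 3, 96181151 to 96195521) was 20.0, 17.1 and 19.8 CPM in GFP replicates 1 to 3 and 37.5, 29.2 and 30.4 CPM in G392E-NS replicates 1 to 3. Every G392E-NS library was above every GFP library. The rise was 1.71-fold (log2 fold change 0.77, SE 0.13, 95% interval 0.47 to 1.07, adjusted p = 0.0156). Of the 6 fits that left out 1 library, the call was lost in those without GFP replicate 1 (adjusted p = 0.0714) or GFP replicate 2 (adjusted p = 0.0791), with log2 fold changes of 0.81 and 0.70. Its relatives were nearly absent: Sv2b had 16 counts over the GFP and 10 over the G392E-NS libraries. Sv2c had 1, 4 and 8 counts in GFP libraries and 10, 32 and 6 in G392E-NS libraries. Sv2a therefore made up 98.7% ± 0.684 of the family's level per kilobase of exon in GFP libraries and 98.6% ± 0.956 in G392E-NS libraries (SD, n = 3).

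The other vesicle proteins, 10 genes tested besides Sv2a, were not called in either direction, where 6.15% of all genes tested were called. Synapsins tether vesicles to actin and to each other. Syn1 was 36.3, 38.0 and 39.2 CPM in GFP libraries and 53.8, 29.2 and 42.2 CPM in G392E-NS libraries. The GFP values lay within the range of the G392E-NS values, which spread from the lowest to the highest of the 6 (log2 fold change 0.14, interval −0.31 to 0.60). Syn2 was 82.0, 92.4 and 70.9 CPM against 87.1, 94.1 and 116 CPM (0.28, interval −0.04 to 0.60, adjusted p = 0.287). Syn3 was 17.1 to 18.6 against 14.8 to 19.3 CPM (−0.11, interval −0.41 to 0.20). The antisense gene Timp3, named after its value was seen, shares 14.1% of the exon bases of Syn3 and rose by 2.32 on the log2 scale (adjusted p = 0.000797). Without knowing whether counting used strand, reads of the 2 genes cannot be told apart. Per kilobase, Syn1 and Syn2 each made up about equal parts of the synapsins in GFP libraries, 46.8% ± 3.40 and 47.2% ± 3.84, and Syn3 6.001% ± 0.569.

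Synaptophysin (Syp), an abundant membrane protein of small vesicles, was 21.9, 20.9 and 23.7 CPM in GFP libraries and 24.0, 17.9 and 23.2 CPM in G392E-NS libraries, so that the groups overlapped (log2 fold change −0.04, interval −0.35 to 0.28). Its widely expressed relative Sypl was 61.3 to 65.1 against 49.2 to 66.1 CPM (−0.09, interval −0.37 to 0.19). The synaptogyrins Syngr1 and Syngr3, also tetraspan vesicle proteins, had log2 fold changes of 0.11 (interval −0.11 to 0.34) and 0.34 (interval −0.05 to 0.72). Syngr3 did not overlap between the groups, at 7.54 to 9.67 against 9.76 to 12.3 CPM, yet its adjusted p was 0.281. Sncb, which encodes beta-synuclein, was barely detected, with 4, 3 and 4 counts in GFP libraries and 13, 7 and 6 in G392E-NS libraries.

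Rab3 proteins are small GTPases that bring vesicles to the active zone by binding Rim. Rab3a, the main neuronal form, was 17.97, 18.9 and 21.9 CPM in GFP libraries and 21.6, 18.5 and 21.7 CPM in G392E-NS libraries (log2 fold change 0.07, interval −0.22 to 0.36). Rab3b was 4.61, 5.07 and 1.33 CPM in GFP libraries and 7.19, 5.98 and 9.13 CPM in G392E-NS libraries. GFP replicate 3 was far below its group, and the groups did not overlap. The log2 fold change of 1.03 (SE 0.43, interval 0.03 to 2.02) had an adjusted p of 0.21, and it was 0.61 without GFP replicate 3. Rab3c was 8.58, 7.73 and 10.1 CPM against 18.5, 10.5 and 8.74 CPM. G392E-NS replicate 1 alone stood high, and the log2 fold change of 0.52 (adjusted p = 0.311) became 0.11 without it.

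Transmitter transporters of glutamatergic vesicles were at the limit of detection. Slc17a7 (VGLUT1) had 0 of 59438575 counts in the GFP libraries, which allows a level of up to 0.0505 CPM (3 counts over the 3 libraries), and 0, 3 and 1 counts in the G392E-NS libraries. Slc17a6 (VGLUT2) had 0 counts in GFP libraries and 1 count in G392E-NS replicate 2. Other transporters, chosen after their values were seen, were also low: Slc32a1, the vesicular GABA transporter, had 3 counts in GFP libraries and 1 in G392E-NS libraries, and Slc17a8 (VGLUT3) had 1.15 ± 0.0552 CPM in GFP libraries and 0.581 ± 0.0999 CPM in G392E-NS libraries (adjusted p = 0.0717). The monoamine transporter gene Slc18a2 stood at 2.62 ± 0.523 and 2.19 ± 0.408 CPM. Each of these transporters for glutamate, GABA and monoamines was below 4 CPM in every library. Other vesicle proteins varied: Syp, Sv2a and Syn1 were above 17 CPM in each library, while Sv2b, Sv2c and Sncb were at most 1.36 CPM. Rab3b ranged from 1.33 to 9.13 CPM. The limit from a count of 0 covers counting error only.

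**Figure D3:**
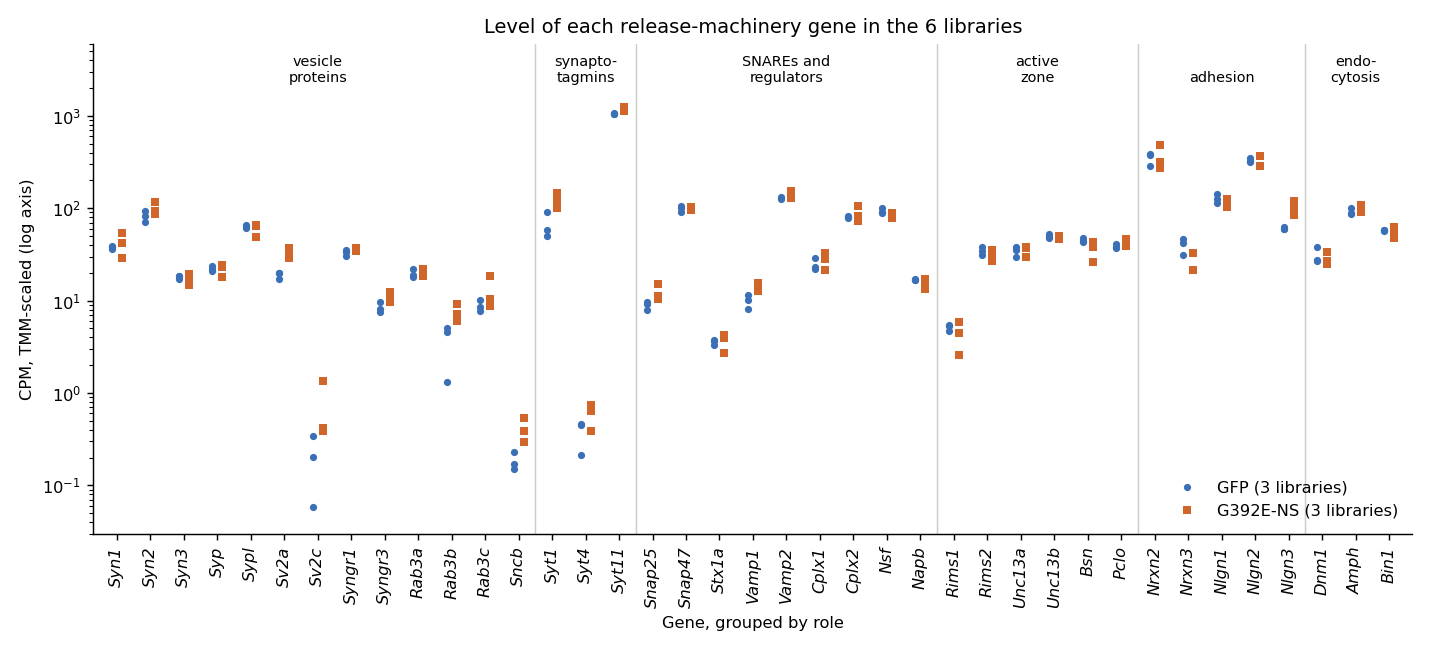
CPM on a log axis for the 39 genes with 30 or more counts, 3 GFP libraries (circles) and 3 G392E-NS libraries (squares), grouped by role. Syt11 lies at 1043 or more in all 6 libraries, Sv2c, Sncb and Syt4 lie near or below 1, and in most genes the 2 groups overlap.

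Synaptotagmins sense calcium at fusion, although Syt4 and Syt11 are atypical members that do not trigger fast release. Syt1, the sensor of fast release, was 57.9, 50.4 and 90.3 CPM in GFP libraries and 148, 118 and 99.3 CPM in G392E-NS libraries. GFP replicate 3 stood above the other GFP libraries, and all 3 G392E-NS libraries stood above it. The difference of 1.84-fold (log2 fold change 0.88, SE 0.23, interval 0.35 to 1.41) did not pass, with an adjusted p of 0.064. Without GFP replicate 3 it was 1.17 and passed (adjusted p = 0.0233), and DESeq2 called it too (adjusted p = 0.00351). Syt11 was the most abundant gene of the machinery, at 1069.6, 1043 and 1059 CPM in GFP libraries and 1139, 1248 and 1178 CPM in G392E-NS libraries. The groups did not overlap but lay close (log2 fold change 0.17, interval −0.08 to 0.42, adjusted p = 0.39). Syt4 had 8, 9 and 5 counts in GFP libraries and 18, 15 and 6 in G392E-NS libraries (0.72, interval −0.23 to 1.67). Per kilobase Syt1 made up 3.27%, 2.93% and 5.06% of these 3 genes in GFP libraries and 7.49%, 5.59% and 4.996% in G392E-NS libraries, with overlap at GFP replicate 3.

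None of the 9 genes of SNAREs and their regulators was called, and the interval of each lay within 2-fold. Over all genes tested 6.15% were called, and 76.9% had such an interval. Vamp1 and Vamp2 are the vesicle SNAREs. Vamp1 was 11.4, 10.04 and 8.08 CPM in GFP libraries and 12.8, 15.6 and 15.1 CPM in G392E-NS libraries, with no overlap (log2 fold change 0.56, SE 0.17, adjusted p = 0.0916; called by DESeq2 at adjusted p = 0.0402). Vamp2 was far more abundant, at 133, 125 and 130.2 CPM against 153, 152 and 129 CPM, and made up 97.2% ± 0.441 of the pair per kilobase in GFP libraries (0.16, interval −0.06 to 0.38). Snap25, the neuronal SNARE of the plasma membrane, was low, at 9.56, 7.98 and 9.20 CPM in GFP libraries and 15.2, 11.2 and 10.5 CPM in G392E-NS libraries. The 2 groups of Snap25 did not overlap (0.47, SE 0.18, interval 0.05 to 0.88, adjusted p = 0.176). Its relative Snap47, a broadly expressed protein, was 91.5, 101 and 106 CPM against 95.8, 104 and 104 CPM (0.02, interval −0.19 to 0.23). The antisense gene Jmjd4 shares 11.6% of the exon bases of Snap47, and 17 of the 42 genes share exon bases with some other gene.

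The syntaxin gene Stx1a was 3.74, 3.61 and 3.34 CPM in GFP libraries and 2.70, 4.24 and 3.91 CPM in G392E-NS libraries. The G392E-NS values lay on both sides of the GFP values (log2 fold change 0.02, interval −0.50 to 0.54). Complexins clamp and then promote fusion. Cplx1 was 21.9 to 28.7 against 21.5 to 32.8 CPM (0.17, interval −0.24 to 0.57), and Cplx2 was 79.1 to 82.6 against 73.5 to 106 CPM (0.12, interval −0.19 to 0.43). The ATPase gene Nsf was 88.2 to 101 against 77.6 to 88.9 CPM (−0.14, interval −0.36 to 0.08). Napb, which encodes the neuronal adaptor beta-SNAP, was 16.8 ± 0.271 against 14.9 ± 1.89 CPM (−0.16, interval −0.46 to 0.13). For all 4 of these genes the groups overlapped.

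At the active zone, 6 of 6 genes were tested and none was called or free of overlap between groups. Over all 13775 genes tested 6.15% were called, and 9836 overlapped between groups. Bsn encodes the scaffold Bassoon and was 44.3, 47.2 and 43.3 CPM in GFP libraries and 38.3, 26.2 and 43.4 CPM in G392E-NS libraries. G392E-NS replicate 2 was the lowest, and replicate 3 reached the GFP range (log2 fold change −0.32, interval −0.72 to 0.07, adjusted p = 0.312). Pclo, which encodes its relative Piccolo, was 37.5 to 40.6 against 38.7 to 47.0 CPM (0.16, interval −0.08 to 0.40). Rims1 and Rims2, which recruit calcium channels and Rab3 vesicles, had log2 fold changes of −0.27 (interval −0.94 to 0.39) and −0.18 (interval −0.49 to 0.13). The Munc13 genes Unc13a and Unc13b, whose products open syntaxin for priming, had log2 fold changes of 0.03 (interval −0.29 to 0.35) and −0.05 (interval −0.25 to 0.16). Summed per kilobase, the 6 genes stood at 13.0 to 14.2 CPM per kilobase in GFP libraries and 10.8 to 13.7 in G392E-NS libraries, the lowest being replicate 2.

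Nlgn3 was the called gene of the 5 adhesion genes. Neuroligins sit on the postsynaptic side and bind presynaptic neurexins, and Nlgn3 is also known from glia. Its level (ENSMUSG00000031302, chromosome X, 101299168 to 101325963) was 58.9, 58.9 and 63.3 CPM in GFP libraries and 121, 84.9 and 97.3 CPM in G392E-NS libraries. The GFP libraries lay close together, and each G392E-NS library stood above them. The rise was 1.67-fold (log2 fold change 0.74, SE 0.13, interval 0.44 to 1.05, adjusted p = 0.0175). Of the 6 fits that left out 1 library, it was not called in those without GFP replicate 1 (0.72, adjusted p = 0.0917) or GFP replicate 2 (0.72, adjusted p = 0.0816).

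The share of Nlgn3 within its family rose too, but it rests on the same Nlgn3 counts and is no separate support. Nlgn3 made up 9.04%, 8.94% and 8.81% of neuroligin CPM per kilobase in GFP replicates 1 to 3 and 15.1%, 13.7% and 12.9% in G392E-NS replicates 1 to 3. This share needs no scaling between libraries, and the groups did not overlap. Nlgn2, the neuroligin of inhibitory synapses, was 316, 325 and 347 CPM in GFP libraries and 368, 287 and 366 CPM in G392E-NS libraries (log2 fold change 0.05, interval −0.23 to 0.33). Nlgn1, that of excitatory synapses, was 126, 115 and 143 CPM against 127, 111 and 103 CPM (−0.17, interval −0.44 to 0.10). In GFP libraries Nlgn2 made up 78.0% ± 0.895 of the family per kilobase and Nlgn1 13.0% ± 0.920.

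The gene model Gm21986, looked up together with Xist after the values were seen, shares 3823 of the 9271 exon bases of Nlgn3 on the same strand, so reads there may have been split or dropped in counting. Gm21986 itself had 33, 42 and 41 counts in GFP libraries and 15, 21 and 11 in G392E-NS libraries and was lower (log2 fold change −1.36, adjusted p = 0.022). Nlgn3 is X-linked, and the groups differed in Xist, the RNA that coats the inactive X, at 1.41 to 1.56 CPM in GFP libraries and 1156 to 1846 CPM in G392E-NS libraries. The Xist difference divides the libraries just as the transgene does, so neither can be separated from the other for any gene compared here. Its part in the results was not tested. Of 494 X-linked genes tested 30 (6.07%) were higher and 15 lower, with a median log2 fold change of −0.05. The share called in either direction was 9.11%, against 6.15% of all genes tested. The other X-linked genes of the machinery, Syn1 and Syp, were not called.

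Neurexins are the presynaptic partners of neuroligins. Nrxn2 was 374, 386 and 284 CPM in GFP libraries and 315, 270.4 and 481 CPM in G392E-NS libraries, a spread within each group larger than the difference between them (log2 fold change 0.03, interval −0.47 to 0.54). Nrxn3 was 46.0, 42.01 and 31.3 CPM against 33.1, 21.6 and 32.6 CPM. It had the most negative log2 fold change of the machinery, −0.45 (SE 0.20, interval −0.91 to 0.01), with an adjusted p of 0.23 and overlap at GFP replicate 3. Nrxn3 made up 11.1% ± 0.666 of the level of the pair per kilobase in GFP libraries and 8.42% ± 1.73 in G392E-NS libraries.

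**Figure D4:**
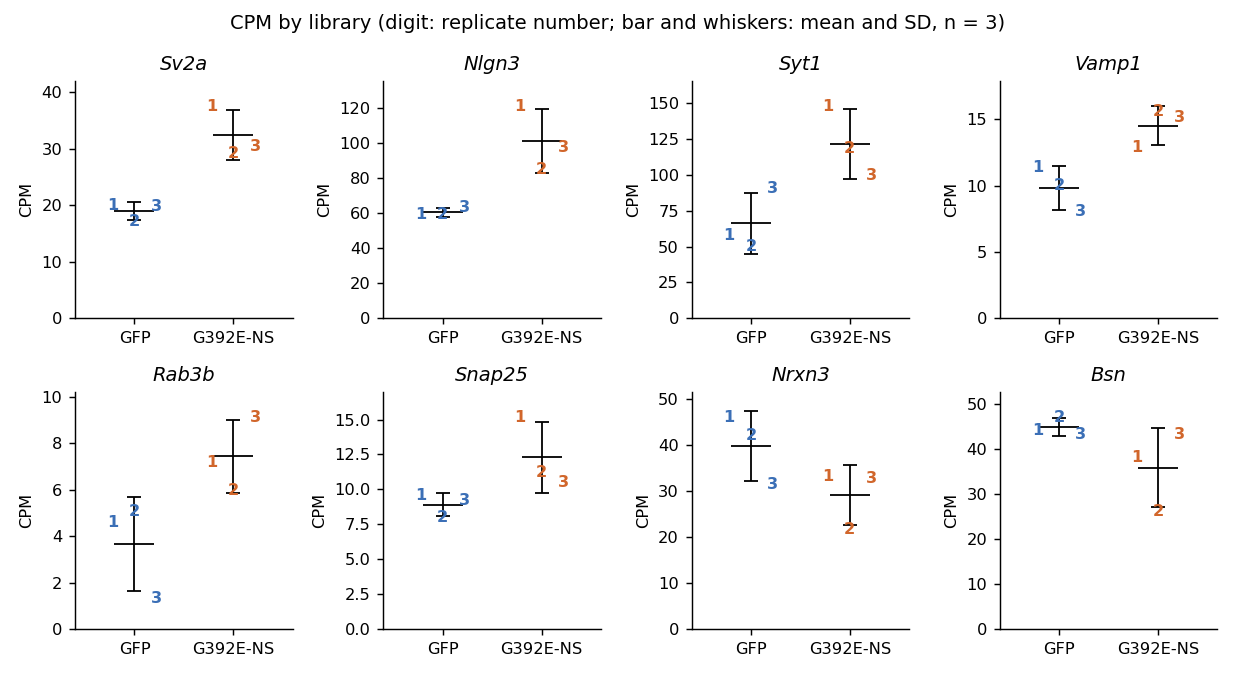
CPM (y axis, from 0) of 8 genes by group, with digits for replicate numbers and bars with whiskers for the mean and SD of 3 libraries. Sv2a and Nlgn3 show tight GFP values below all G392E-NS values, Syt1 and Rab3b show a GFP replicate 3 apart from its group, and Nrxn3 and Bsn overlap between groups.

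The 3 genes of vesicle endocytosis, which coat, bend and cut the membrane during retrieval, were not called. Dnm1, the neuronal dynamin, was 27.5, 26.6 and 37.9 CPM in GFP libraries and 33.4, 25.1 and 26.5 CPM in G392E-NS libraries (log2 fold change −0.11, interval −0.51 to 0.28). Amph, which encodes amphiphysin, was 87.0, 89.8 and 100.4 CPM against 93.9, 91.4 and 108 CPM (0.08, interval −0.15 to 0.32). Its relative Bin1, active in many tissues, was 56.2 to 58.8 against 48.1 to 62.1 CPM (−0.06, interval −0.31 to 0.20). All 3 overlapped between the groups, as did 9836 of all 13775 genes tested.

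Levels were compared between genes as CPM per kilobase of exon, which depends on the exons that the annotation lists. In GFP libraries Syt11 led at 203 ± 2.62 (SD, n = 3), or 37.3% of the summed level of the 39 genes. Nlgn2 (56.9 ± 2.75) came next, then Snap47 (37.6 ± 2.84) and Vamp2 (34.0 ± 1.001), which overlapped each other, and Nrxn2 (25.2 ± 4.05) with Amph (20.4 ± 1.56), which did as well. From Syn2 (11.6 ± 1.53) down to Dnm1 (5.84 ± 1.19) each gene overlapped the next in the order. The SNARE partners of Vamp2 were lower, with Stx1a at 1.34 ± 0.0780 and Snap25 at 1.31 ± 0.122, overlapping each other. The lowest were Syt4 (0.0965 ± 0.0360), Sncb (0.0858 ± 0.0193) and Sv2c (0.0206 ± 0.0147).

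By role, the summed level per kilobase of vesicle proteins was 60.7, 63.1 and 62.9 in GFP libraries and 77.4, 64.7 and 73.1 in G392E-NS libraries. That of synaptotagmins, most of it Syt11 (203 of 211 in the GFP mean), was 213, 206 and 214 against 237, 254 and 238. Neither pair of ranges overlapped under TMM scaling, whereas those of SNAREs, active zone, adhesion and endocytosis genes did. The TMM factors were 1.02 in each GFP library and 0.950 in G392E-NS replicate 2. This difference in scaling is larger than the gap of vesicle proteins between 63.1 and 64.7, so their separation depends on the scaling. Synaptotagmins had a median log2 fold change of 0.72 over 3 genes, vesicle proteins 0.14 over 11, SNAREs and regulators 0.12 over 9, adhesion genes 0.03 over 5, endocytosis genes −0.06 over 3 and active zone genes −0.11 over 6. The synaptotagmin median is the value of Syt4, which had 61 counts over the 6 libraries and an interval of −0.23 to 1.67. Differences between roles were not tested.

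Of the 37 genes, 8 had every G392E-NS library above every GFP library, which is 21.6%, against 15.7% of all genes tested. They were Sv2a, Syngr3, Rab3b, Syt1, Syt11, Snap25, Vamp1 and Nlgn3. In 0 of 37 was every G392E-NS library below every GFP library, against 12.9% of all genes tested. The spread was wider in the G392E-NS group: the median coefficient of variation (SD over mean) was 14.5% there and 7.78% in GFP, and it was larger in G392E-NS for 25 of 37 genes, close to the 70.1% of all genes. G392E-NS replicate 2 was the lowest of its group for 21 of the 37 and for 4067 of all 13775 genes tested. It had the highest summed astrocyte markers of the 6 libraries, 14678 CPM.

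The 37 genes were long. Their median span in the genome was 47341 bases and their median exon length 6791 bases, against 23723 and 4436 bases over all genes tested. The median GC content of their longest transcripts, 49.9%, was close to 49.5% for all. With each library's trend on length and GC content removed, Sv2a and Nlgn3 were called again, and Syt1 was called as well (log2 fold change 0.93, adjusted p = 0.0464).

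**Figure D5:**
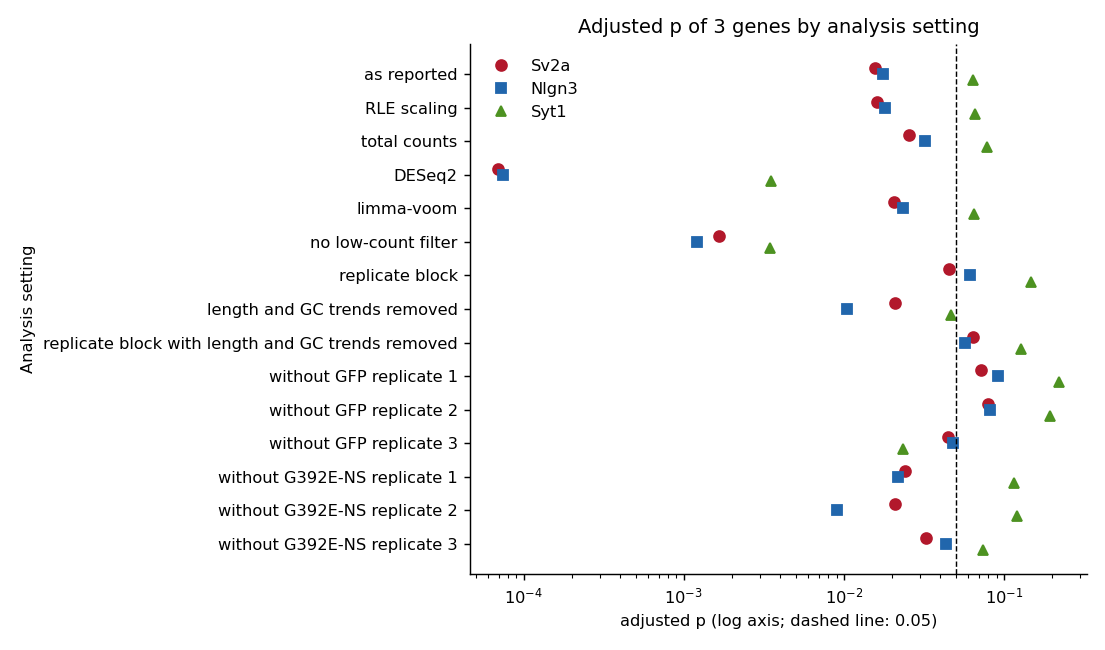
Adjusted p on a log axis (x) of Sv2a, Nlgn3 and Syt1 under the reported analysis and 14 alternatives (y), with a dashed line at 0.05. Sv2a lies below the line in 11 of the 14 alternatives, Nlgn3 in 10 and Syt1 in 4.

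Under the 14 alternatives the count of higher genes of the machinery moved from 0 to 4, beside a share of all genes that moved too. It was 2 with RLE scaling (4.67% of all genes higher), total-count scaling (4%) and limma-voom (3.79%), 3 with no low-count filter (5.2%) or with length and GC trends removed (5.33%) and 4 by DESeq2 (7.87%). It was 1 with a replicate block (1.58%) and 0 with that block and the trends removed (1.08%). Leaving out GFP replicate 1, 2 or 3 gave 0, 0 and 3 (1.38%, 1.46% and 2.74%), and leaving out G392E-NS replicate 1, 2 or 3 gave 2 each time (7.04%, 3.08% and 3.22%).
The count of lower genes was 0 under each alternative. The share of all genes lower was 1.36% with RLE scaling, 1.66% with total-count scaling, 2.66% by DESeq2, 1.22% by limma-voom, 1.61% with no low-count filter, 0.363% with the block, 1.71% with the trends removed and 0.247% with both. It was 0.324%, 0.359% and 1.2% without GFP replicate 1, 2 or 3 and 2.81%, 0.611% and 0.938% without G392E-NS replicate 1, 2 or 3.

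A further list of release genes outside the 42 was read beside them. Of 60 listed, 51 were tested, 4 were higher and none lower, with a median log2 fold change of −0.03. The 4 are 7.84% of the 51, against 4.79% of all genes tested higher and 1.36% lower. At an unadjusted p under 0.05, 5 were higher and 6 lower, or 9.8% and 11.8%, against 14.4% and 8.06% of all genes tested. Every G392E-NS library was above every GFP library for 6 of the 51 (11.8%) and below for 10 (19.6%). The shares of all genes tested were 15.7% and 12.9%. Unc13c, a further Munc13 gene, rose 6.41-fold from 0.227 ± 0.119 to 1.52 ± 0.320 CPM (adjusted p = 0.00868). Ppfia2, an active zone liprin, rose 2.94-fold (adjusted p = 0.0316), and Rims3, a short Rim form, rose 1.72-fold (adjusted p = 0.0339). These 3 genes stood below 8 CPM in every library. The largest fall of the list, not called, was 2.53-fold for Stxbp5l (adjusted p = 0.0575), named outside the rule after its value was seen.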

How the data were processed

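The deposited table holds raw counts per Ensembl gene, whole numbers that are not normalised, as the values show. Build GRCm38 and the tools HTSeq 0.6.1, TopHat2 2.0.12, DESeq2 1.4.5 and R 3.2.2 appear, without roles, in the submitters' processing notes. Neither these nor the labels state the annotation, the strand setting or the handling of shared reads. Columns were matched to samples by title. Totals were 15507487 to 24835835 counts per library, and replicate pairs differed beyond sampling noise (chi-square per degree of freedom 8.02 to 56.4). GENCODE M21 paired 37693 of 39179 genes with a symbol.

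edgeR 4.0.16 (R 4.3.3) compared G392E-NS with GFP on all genes kept by filterByExpr, with TMM scaling, a quasi-likelihood F test, no covariate and Benjamini-Hochberg adjustment over all genes tested. Intervals are 95%, from the fold change, its F statistic and degrees of freedom. The code was tested on simulated data. Alternatives were DESeq2 1.42.0, scaling by RLE factors or by total counts, limma 3.58.1 with voom, no low-count filter, a replicate block, removed length and GC trends, and each library left out. The genes, roles, further lists and markers were chosen with earlier results of these data known. All 42 genes are named; further lists name called members by adjusted p, and 1 called gene of the further release genes is not reported here.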

Additional observations from a re-analysis of the deposited data

How the results depend on the processing

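Of 516 values of the 37 genes over 14 alternatives, 7 lost and 5 gained a call, and no called gene changed direction. The machinery had 4 higher genes by DESeq2 (Sv2a, Nlgn3, Syt1 and Vamp1). Each fit with a library left out tests fewer samples. The count was then 0 without GFP replicate 1 or 2, 3 without GFP replicate 3 and 2 without any 1 of the G392E-NS libraries. No gene was lower under any alternative. Genes above 0 numbered 19 of 37 with total-count scaling, against 24. Same-numbered libraries deviated with correlations of 0.03, −0.38 and −0.25, and not every library correlated best with its own number. These values give no sign that the numbers pair the samples. They cannot show that pairing is absent, since other variation could mask it, and the labels do not say. With the replicate block 1 gene of the machinery, Sv2a, was higher (Nlgn3 had an adjusted p of 0.0617), and with the block and the trends removed 0 were (adjusted p = 0.0637 for Sv2a and 0.0572 for Nlgn3). Over all genes 660 were higher (4.79%) and 187 lower (1.36%) as reported. DESeq2 gave 1084 (7.87%) and 366 (2.66%). Without a low-count filter they were 1205 (5.2%) and 374 (1.61%). The block gave 217 (1.58%) and 50 (0.363%), and 149 (1.08%) and 34 (0.247%) with the trends removed as well. With a library left out, 1.38% to 7.04% were higher and 0.324% to 2.81% lower. The cause of these changes was not tested. Levels under 1 CPM rest on few counts.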

Other observations

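Genes of dense-core vesicles, which store peptides and are released more slowly, were also not called. Of 12 listed, 9 were tested and 0 were higher or lower by edgeR, with 2 higher and 0 lower at an unadjusted p under 0.05, where 14.4% of all genes tested were higher and 8.06% lower. Cpe, which encodes carboxypeptidase E, a peptide-processing enzyme, was 1086, 929 and 1538 CPM in GFP libraries and 1819, 3840.2 and 2256 CPM in G392E-NS libraries, with an adjusted p of 0.0638. Ptprn2, a membrane protein of these vesicles, was 37.9 ± 3.81 and 45.6 ± 2.64 CPM (adjusted p = 0.193).

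Rest and 7 of its corepressors were all tested, and 0 were called by edgeR, with 1 higher and 2 lower at an unadjusted p under 0.05 (14.4% and 8.06% of all genes tested). Their smallest adjusted p were 0.0723 for Rcor3 and 0.157 for Sin3a. Rest, named outside the rule after its value was seen, was 50.9 ± 4.53 CPM in GFP libraries and 46.7 ± 9.07 CPM in G392E-NS libraries (log2 fold change −0.12, adjusted p = 0.677).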
